A study of Mus musculus with 201 samples.

Results

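The 7 genes *Gabra2*, *Gabra3*, *Gabra4*, *Gabra5*, *Gabrb1*, *Gabrb2* and *Gabrd* encode 4 alpha subunits, 2 beta subunits and the delta subunit of the GABA-A receptor. They were taken as a named list of subunit genes, and each of the 7 was found in every expression table, among 42983 gene symbols in all. Single dentate granule cells (DGCs) or their nuclei were sequenced one by one, as whole cells after pentylenetetrazole (PTZ) or saline and as nuclei after exposure to an unfamiliar environment (NE) or from the home cage (HC). Whole cells came from Prox1-GFP mice, in which the *Prox1* promoter drives the fluorescent protein used for the sort, and were freed with the protease papain from mice killed 1 h after an injection of PTZ (50 mg/kg) or saline. Each treatment was a pool of 2 mice by the methods, although the series' own design text speaks of a single mouse. Nuclei came from female C57BL/6 mice aged 8 weeks and were freed by Dounce homogenization. NE nuclei were from 1 mouse that explored the new cage for 15 min and then spent 1 h in the home cage, and were sorted as Prox1+/Fos+ or Prox1+/Fos- by antibody staining, hereafter FOS+ and FOS-. HC nuclei, from a mouse left in its home cage, are labelled as a NeuN+/Prox1+ sort. By the methods, they were amplified on a microfluidic (C1) chip, where the staining was scored by imaging.

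GABA-A receptors are chloride channels built of 5 subunits around a pore that opens when GABA binds, usually a pair of alpha subunits, a pair of beta subunits and a gamma or delta subunit. In granule cells of the dentate gyrus, receptors with the alpha4 and delta subunits lie outside synapses and carry a steady, tonic inhibition, and alpha5 receptors are also largely extrasynaptic. The alpha2 subunit is common in receptors at synapses, where gephyrin holds them. PTZ is an antagonist of GABA-A receptors and causes seizures.

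The subunits descend from a common ancestor, so it matters whether a short read can be assigned to 1 of them. A run of 8 codons was the longest stretch that translated to the same residues in all 7 genes, in the second membrane-spanning helix that lines the pore. It is printed with 4 codons on either side because it is the longest place where all members agree in residues. Capitals mark bases that differ from *Gabra2*, and the sequences are those of GENCODE transcripts on GRCm38, 5′ to 3′ on the coding strand.
Gabra2: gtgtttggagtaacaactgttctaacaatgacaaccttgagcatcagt
Gabra3: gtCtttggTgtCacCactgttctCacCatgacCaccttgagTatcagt
Gabra4: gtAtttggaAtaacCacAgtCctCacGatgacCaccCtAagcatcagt
Gabra5: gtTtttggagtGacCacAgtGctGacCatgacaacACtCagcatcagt
Gabrb1: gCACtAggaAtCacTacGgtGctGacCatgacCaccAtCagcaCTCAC
Gabrb2: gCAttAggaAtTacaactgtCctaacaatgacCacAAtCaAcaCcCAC
Gabrd: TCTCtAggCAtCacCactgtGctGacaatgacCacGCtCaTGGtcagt
Of the 48 bases shown, 8 differed from *Gabra2* in *Gabra3*, 10 in *Gabra4*, 10 in *Gabra5*, 15 in *Gabrb2*, 18 in *Gabrd* and 19 in *Gabrb1*. Even where the residues were identical, between 3 and 6 of the 24 bases differed. Over whole transcripts, *Gabra4*, *Gabrb1* and *Gabrd* shared no run of 31 bases with any other gene. Matches of this length with other GABA-A subunit genes numbered 4 for *Gabra2* and 2 for *Gabra3*, and 0 for *Gabra5* and *Gabrb2*. The share of runs found in any other gene was 0.231% in *Gabra3*, 0.298% in *Gabrb2*, 1.28% in *Gabra2* and 4.21% in *Gabra5*. In *Gabra5* all 124 shared runs lay in its antisense partner *Gm9962*.

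The 3 genes on chromosome 5 lie side by side. *Gabra2* is at chr5:70957597-71095849 on the minus strand, *Gabra4* at chr5:71569749-71658308 on the minus strand and *Gabrb1* at chr5:71658113-72149037 on the plus strand. *Gabra4* and *Gabrb1* start head to head, and their annotated spans overlap by 196 bases, of which 46 are exonic in both. *Gabra5*, at chr7:57407672-57510059 on the minus strand, overlaps *Gm9962* on the plus strand. *Gabra3* is at chrX:72432681-72656848 and *Gabrd* at chr4:155384980-155398112, both on the minus strand, and *Gabrb2* is at chr11:42419757-42629028 on the plus strand. The kit used does not mark strand, so reads from the overlapping exons cannot be told apart by strand.

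RefSeq promoter windows on GRCm38.p6, from 250 bases before to 50 bases after each start, were matched for 6 of the 7 genes, with 10 windows in all. The AP-1 motif, to which FOS-containing dimers bind, was searched as TGANTCA on both strands, and the cyclic AMP response element as TGACGTCA. Neither was present in any of the 10 windows, whereas 7.81% and 1.79% of all 32817 promoter windows held them. No match says only that these letters are not in these windows.

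Of 201 deposited samples, 172 were used: 30 of 35 PTZ cells, 38 of 47 saline cells, 40 of 48 FOS+ nuclei, 41 of 48 FOS- nuclei and the 23 HC nuclei. Median totals were 1.09e+06 counts in PTZ cells and 975934 in saline cells, against 269061 in FOS+, 214421 in FOS- and 165926 in HC nuclei. The median number of genes with TPM, a transcript level scaled for length and depth, above 1, the limit for detection used throughout, lay between 5759.5 and 6446.5 in the whole cells and NE nuclei and was 3213 in HC nuclei. The median cell or nucleus had 8 of 8 granule cell markers in both groups of whole cells, 6 in FOS+, 7 in FOS- and 4 in HC nuclei. Fewer than 4 of the 8 were detected in 3 PTZ cells, 1 saline cell, 2 FOS+ nuclei and 8 HC nuclei. Astrocyte markers were at 0 in saline cells, and 1 PTZ cell had at least 2 of the 4. The interneuron markers *Slc32a1* and *Pvalb* were at 0 in every whole cell, whereas *Gad1* was detected in 21 of 30 PTZ and 33 of 38 saline cells. In nuclei, at least 2 of 7 interneuron markers were detected in 15 of 40 FOS+, 12 of 41 FOS- and 4 of 23 HC nuclei. At least 2 of 5 oligodendrocyte lineage markers were detected in 25 FOS+, 17 FOS- and 3 HC nuclei, and in 5 PTZ and 3 saline cells. *Fos*, whose protein the sort used, was detected in 12 of 40 FOS+ and 3 of 41 FOS- nuclei, and *Arc*, another activity gene, in 31 and 1. In whole cells *Fos* was detected in 26 of 30 PTZ cells and also in 30 of 38 saline cells. The cells of a treatment or sort share their mice and preparation, so each group counts as 1 sample. Values are given with their spread over cells, and no test of the treatments or sorts was possible. The 3 tables differ in compartment or platform and were normalized separately, so levels are set side by side across them without a comparison.

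Saline cells show the repertoire of papain-treated DGCs without PTZ. *Gabra2*, the synaptic alpha subunit, was detected in 38 of 38 saline cells, with TPM from 13.6 through a median of 303 to 925. Its log2(TPM + 1), a scale per transcript length on which the genes can be compared, averaged 8.18 ± 1.11 (SD, n = 38). It therefore led the 7 genes in both mean level and detection, and no saline cell lacked it.

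*Gabra4*, the alpha partner of delta, followed with a mean log2(TPM + 1) of 7.19 ± 1.92 (SD, n = 38), and was detected in 36 of 38 cells. Its TPM ran from 0 through a median of 161 to 645. *Gabrb2*, 1 of the beta subunits, was close behind at 6.88 ± 2.21 and was also detected in 36 cells, with a median of 146 and a highest value of 921 TPM. *Gabra2* exceeded *Gabra4* in 29 of 38 cells and was below it in 9, and *Gabra4* exceeded *Gabrb2* in 24 and was below it in 14. The mean paired differences were 0.99 (SD 1.55) and 0.31 (SD 2.18), so both pairs differed by less than their spread between cells.

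*Gabra5*, *Gabrb1* and *Gabrd* came next by mean in saline cells, without a clear step below *Gabrb2*. *Gabrb2* exceeded *Gabra5* in 21 of 38 cells and was below it in 17. *Gabra5* averaged 6.18 ± 2.96 on the log2(TPM + 1) scale, detected in 32 of 38 cells with a median of 160.0 and a maximum of 1562 TPM. *Gabrb1*, the other beta subunit of the list, averaged 6.12 ± 2.70, detected in 33 cells with a median of 128 and a maximum of 461 TPM. *Gabrd* averaged 5.52 ± 3.34, detected in 30 cells with a median of 127 and a maximum of 625 TPM. The order of *Gabra5*, *Gabrb1* and *Gabrd* did not hold cell by cell either. *Gabra5* exceeded *Gabrb1* in 20 cells and was below it in 18, and *Gabrb1* exceeded *Gabrd* in 14 and was below it in 22. The spread came from a split between cells with no transcript and cells with many, as the median count among detecting saline cells was 268 for *Gabra5*, 263 for *Gabrb1* and 224 for *Gabrd*.

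*Gabra3*, an alpha subunit of other brain regions more than of the dentate gyrus, was at the floor. It was detected in 8 of 38 saline cells and 1 of 30 PTZ cells, with at most 4 counts in any saline cell and 1 in any PTZ cell. Counts summed to 14 over the saline cells and 2 over the PTZ cells. The median detecting saline cell had 1.5 counts, so detection rests on single reads.

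The other 6 genes were also found in PTZ cells. *Gabra2* was detected in 28 of 30 PTZ cells and *Gabra4* and *Gabra5* in 24 each, *Gabrb1* in 23, *Gabrb2* in 22 and *Gabrd* in 15. In order of mean log2(TPM + 1), *Gabra2* led at 7.52 ± 2.54 (SD, n = 30), with *Gabra5* at 6.15 ± 3.22, *Gabra4* at 5.73 ± 3.04 and *Gabrb2* at 5.03 ± 3.34 next. *Gabrb1* at 4.93 ± 3.03 and *Gabrd* at 3.80 ± 3.91 came after them, and *Gabra3* was last at 0.10 ± 0.43. *Gabra5* stood above *Gabra4* in the mean but was below it in 17 of 30 cells, and *Gabrb2* and *Gabrb1* were about as often in either order (11 and 16 cells).

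**Figure D1:**
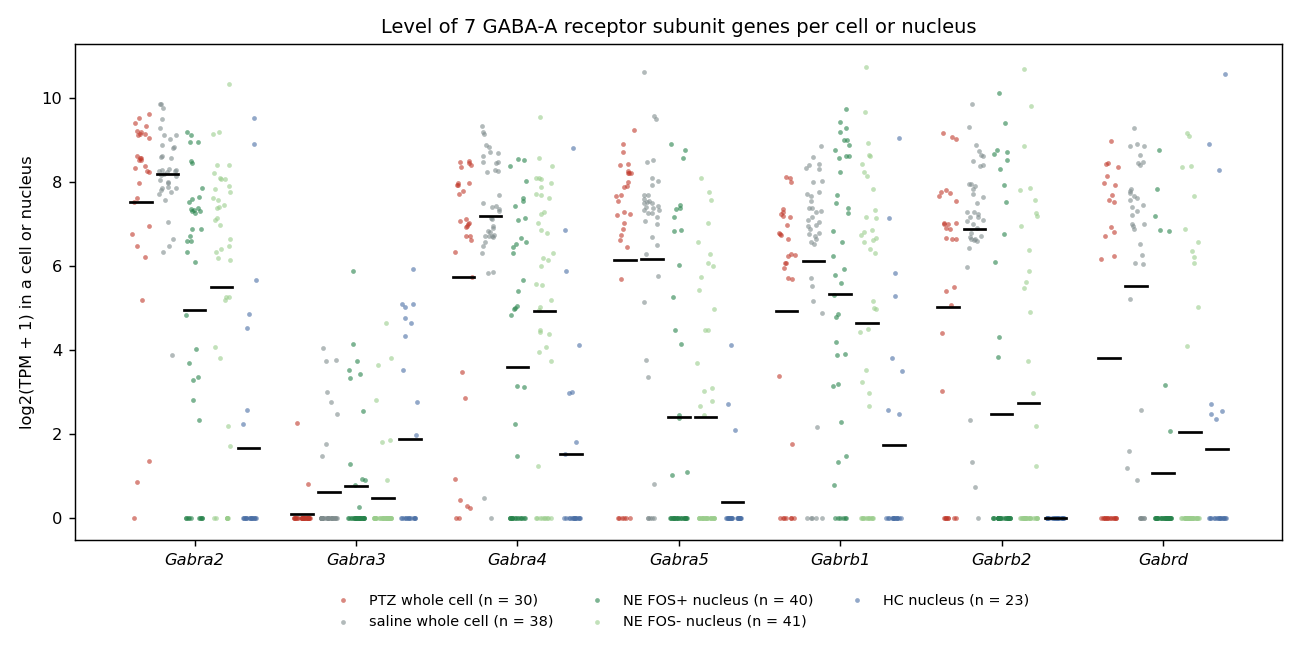
Level of each of the 7 subunit genes in single cells and nuclei, as log2(TPM + 1) on the vertical axis. Each point is 1 cell or nucleus, colours mark the 5 groups, and black bars are group means; whole cells of most genes split into a cloud above 5 and points at 0, nuclei have more points at 0, and *Gabra3* lies near 0 in most cells.

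The PTZ and saline cells were compared to see whether subunit mRNA differed 1 h after the seizure-inducing injection. Each of the 7 genes was detected in a smaller share of PTZ cells than of saline cells, and had a lower mean log2(TPM + 1). Across all 14492 genes tested, 52.4% had a lower share and 55.2% a lower mean. The median difference in share was -14.7 percentage points over the 7 genes and -0.702 points over all genes. For mean log2(TPM + 1) the median difference was -1.19 over the 7 genes, -0.80 over the 8 granule cell markers and -0.05 over all genes. It was -0.59 over 20 genes for the inhibitory synapse scaffold and receptor trafficking, and 0.17 over 6 for chloride transport. No treatment replicate exists to set these differences against, and preparation and treatment cannot be told apart.

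*Gabrd* and *Gabrb2* had the widest gaps in detection. *Gabrd*, the delta subunit of tonic inhibition, was detected in 50% of PTZ cells (exact 95% binomial interval 31.3 to 68.7%) and 78.9% of saline cells (62.7 to 90.4%), a difference of -28.9 points. Its TPM ran from 0 through a median of 35.5 to 505 in PTZ cells. *Gabrb2* was detected in 73.3% of PTZ cells (54.1 to 87.7%) and 94.7% of saline cells (82.3 to 99.4%), a difference of -21.4 points, with PTZ values from 0 through 99.7 to 569 TPM. The ranges of the groups overlapped almost wholly for both genes. A gap of 20 points or more toward lower detection was met by these 2 of 7 genes and by 4.35% of all genes. None of the 7 had a gap of this size toward higher detection, which 3.12% of all genes had, and 7.47% had one in either direction. With every deposited cell, including those of low depth, neither gene reached 20 points (-17.4 for *Gabrd* and -8.02 for *Gabrb2*), and without the cells that lacked most granule cell markers *Gabrb2* did not either (-15.8).

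Levels were also set side by side in detecting cells alone. Among detecting cells, the median for *Gabrd* was 207 TPM in PTZ and 171 TPM in saline cells. For *Gabra2* the medians were 368 and 303 TPM, for *Gabra5* 219 and 169 TPM. *Gabra4*, at 136 and 165 TPM, *Gabrb1*, at 106 and 143 TPM, and *Gabrb2*, at 127 and 153 TPM, were somewhat lower in the PTZ cells.

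Counts summed over cells, scaled to the total of the group (CPM), were 514 in PTZ and 482 in saline cells for *Gabra2*, a ratio of 1.07 (exact 95% interval 1.05 to 1.09, which covers counting error only). The ratio was 1.20 for *Gabra5* and 0.832 for *Gabrd*, and lay at 0.736 for *Gabra4* and 0.729 for *Gabrb1*. *Gabrb2* had the lowest ratio of the well-counted genes, 0.558, from 199.9 against 358 CPM. For *Gabra3* the ratio was 0.142 (0.0156 to 0.617) and rested on 16 reads in all. The change in fitted counts reached 2-fold for *Gabra3* alone, with a log2 fold change of -1.78, while 12.8% of all genes were lower by 2-fold or more. The other 6 had fitted log2 fold changes between -0.86 (*Gabrb2*) and 0.08 (*Gabra2*). The differences in mean log2(TPM + 1) reached -1 or below for *Gabrb2* (-1.85), *Gabrd* (-1.72), *Gabra4* (-1.46) and *Gabrb1* (-1.19), against 8.04% of all genes. None reached 1 in the other direction, as 3.88% of all genes did. The SD between cells of 1 treatment exceeded each of these differences.

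Granule cell markers and gene number were set beside the subunit counts of PTZ cells. The 3 PTZ cells with fewer than 4 of 8 granule cell markers each had 1 of the 7 subunit genes, and the 1 such saline cell had 2. The 7 PTZ cells with at most 3 subunit genes had a median of 4942 genes detected, against 5934 in the 23 others. At an equal depth of 50000 counts per cell, the expected shares of cells with a count were 49.9% and 71.4% for *Gabrd* and 71.8% and 90.3% for *Gabrb2* in PTZ and saline cells. Of the 4 pyramidal or mossy cell markers, at least 2 were detected in 13 of 30 PTZ and 5 of 38 saline cells, with fitted log2 fold changes of 2.02 for *Neurod6* and 3.45 for *Calb2*. Without the cells under 4 granule cell markers, *Gabra5* was detected in a larger share of PTZ cells, by 5.11 points. The part of the other markers in the subunit differences was not tested.

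**Figure D2:**
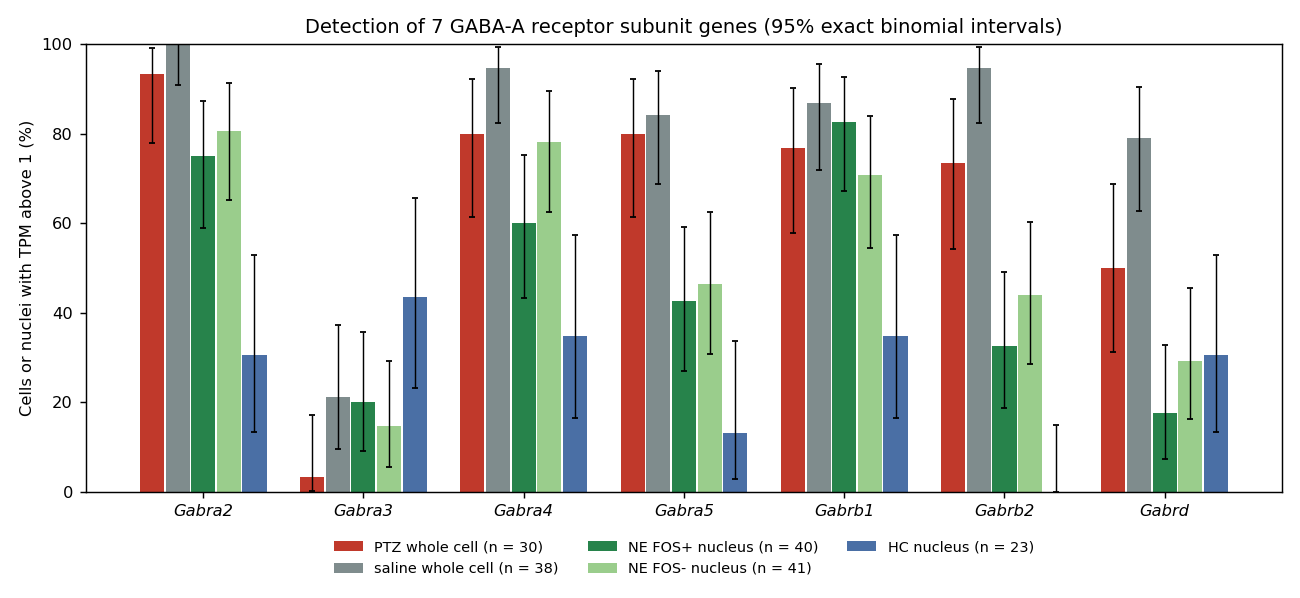
Share of cells or nuclei with TPM above 1 for each subunit gene, in percent, with a bar for each of the 5 groups and exact 95% binomial intervals that cover counting error only. Saline bars stand above PTZ bars for each gene, and *Gabrb2* has no bar in HC nuclei (0 of 23).

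Each of the 7 transcripts was also found in nuclei after NE. In FOS- nuclei, the order by mean log2(TPM + 1) began with *Gabra2* at 5.51 ± 3.22 (SD, n = 41), *Gabra4* at 4.93 ± 3.09 and *Gabrb1* at 4.64 ± 3.47. *Gabrb2* at 2.74 ± 3.55, *Gabra5* at 2.39 ± 2.88 and *Gabrd* at 2.04 ± 3.32 followed, and *Gabra3* came last at 0.47 ± 1.18. Neighbours in this order changed places from nucleus to nucleus. *Gabra4* exceeded *Gabrb1* in 22 nuclei and was below it in 16, and *Gabrb1* exceeded *Gabrb2* in 22 and was below it in 12.

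In FOS+ nuclei *Gabrb1* stood first at 5.33 ± 3.31 (SD, n = 40) and *Gabra2* next at 4.95 ± 3.35. *Gabrb1* exceeded *Gabra2* in 20 nuclei and was below it in 17, so these ranks were not separate. *Gabra4* averaged 3.59 ± 3.33, *Gabrb2* 2.47 ± 3.76, *Gabra5* 2.40 ± 3.29, *Gabrd* 1.07 ± 2.54 and *Gabra3* 0.77 ± 1.5.

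FOS+ and FOS- nuclei of the same mouse were compared to see whether recently active DGCs differed in subunit mRNA. No member differed by 20 points or more in detection, a gap that 7.99% of all 16411 genes showed in either direction, 4.3% toward higher and 3.69% toward lower detection in FOS+ nuclei. 5 of the 7 genes were detected in a smaller share of FOS+ nuclei, where 51.97% of all genes were. The median difference over the 7 genes was -5.49 points.

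*Gabra4* showed the widest gap. It was detected in 24 of 40 FOS+ nuclei (60%, 43.3 to 75.1%) and 32 of 41 FOS- nuclei (78.0%, 62.4 to 89.4%), with TPM from 0 through 17.6 to 373 and from 0 through 46.5 to 742. The mean log2(TPM + 1) differed by -1.33, less than the SD in either group, and 7.99% of all genes were lower by 1 or more. No member was higher by 1 or more, as 5.83% of all genes were. Reads were prepared under 4 amplification conditions, which combined 1 or 10 µM template-switching oligo with ERCC spike-in RNA diluted 1:200 or 1:2000. The *Gabra4* mean was lower in FOS+ nuclei in 4 of 4 conditions, by 0.10 to 3.26 on the log2 scale. The widest gap, 2 of 8 against 8 of 10 nuclei, came from 1 µM oligo with ERCC at 1:2000. *Gabra4* reads pooled over nuclei gave a ratio of 0.647. With detection set at TPM above 5 the gap was -20.6 points. Of 8 granule cell markers, *C1ql2* and *Bcl11b* were lower in FOS+ nuclei, with fitted log2 fold changes of -1.18 and -1.40. The other 6 stayed within 2-fold, and 22.9% of all genes were lower by 2-fold or more. The part of these markers in the subunit values was not tested.

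*Gabrd*, the usual partner of *Gabra4*, was detected in 7 of 40 FOS+ and 12 of 41 FOS- nuclei and was likewise lower in 4 of 4 conditions, by 0.20 to 2.10. Its fitted log2 fold change of -1.07 passed the 2-fold mark, which 22.9% of all genes passed in this direction. Of its 516 counts in FOS+ nuclei, 402 came from a single nucleus. The ratio of pooled counts was 0.656 with that nucleus and 0.191 when the nucleus with most counts in each group was left out.

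*Gabra5* was higher in FOS+ nuclei in pooled counts and in the fit, but not in detection or mean level. It was detected in 17 of 40 FOS+ and 19 of 41 FOS- nuclei, and the mean log2(TPM + 1) differed by 0.01. Among detecting nuclei, however, the median was 113 TPM in FOS+ and 41.7 TPM in FOS- nuclei, and the counts summed to 1379 and 478. The ratio of pooled counts was 2.79 (2.51 to 3.10), and 2.89 without the nucleus with most counts in each group. The fitted log2 fold change was 1.26, and 16.9% of all genes were higher by 2-fold or more. With a pseudocount of 0.1 the mean log2 difference was -0.14, and *Gabra5* was higher in FOS+ nuclei in 2 of the 4 conditions.

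*Gabrb1* was detected in 33 of 40 FOS+ nuclei and 29 of 41 FOS- nuclei, a difference of 11.8 points, and its mean was higher in FOS+ nuclei in 3 of 4 conditions. Its pooled ratio depended on 1 nucleus. A single FOS- nucleus held 2729 of the 5074 counts in its group, and the ratio was 0.792 with it and 1.41 when the top nucleus of each group was left out. *Gabra2* (30 of 40 and 33 of 41 nuclei) had a pooled ratio of 0.770, and *Gabrb2* (13 of 40 and 18 of 41) one of 0.604. *Gabra3* reads numbered 16 and 10.

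**Figure D3:**
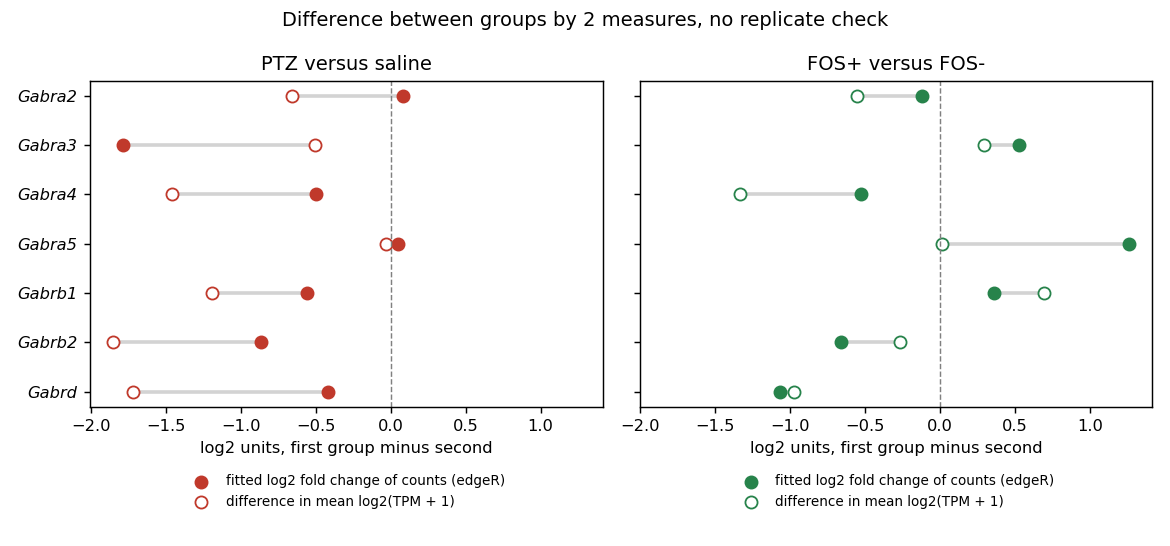
Difference between groups for each subunit gene in log2 units, PTZ minus saline on the left and FOS+ minus FOS- on the right. Filled points are fitted log2 fold changes of counts and open points are differences in mean log2(TPM + 1); *Gabrb2* and *Gabrd* are at -1.85 and -1.72 on the open scale on the left but at -0.86 and -0.42 on the filled scale, and *Gabra5* on the right is at 1.26 filled and 0.01 open.

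HC nuclei, sequenced on another platform and at the lowest depth, held few reads of any member. *Gabra4* and *Gabrb1* were each detected in 8 of 23 nuclei, *Gabra2* and *Gabrd* in 7 and *Gabra5* in 3. *Gabrb2* was not detected, and 0 of 23 nuclei allows a share of up to 13.04%. A single nucleus held 52.5% of the counts of *Gabra2*, 65.1% of *Gabra4*, 66.1% of *Gabrd* and 68.8% of *Gabrb1*. *Gabra3* was the most often detected member, in 10 of 23 nuclei, and had the highest mean log2(TPM + 1), 1.87 ± 2.32 (SD, n = 23). Those 10 nuclei held a median of 1.5 counts and the group 16 in all, so the rank rests on single reads. *Gabrb1* at 1.72 ± 2.75, *Gabra2* at 1.66 ± 2.97, *Gabrd* at 1.65 ± 3.18 and *Gabra4* at 1.52 ± 2.58 stood next to it, and none of these neighbours differed beyond their spread.

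Co-detection shows how many subunits a single cell could combine. The median cell had 6 of the 7 genes in saline, 5 in PTZ, 4 in FOS- nuclei, 3 in FOS+ nuclei and 2 in HC nuclei. At least 6 were present in 25 of 38 saline and 13 of 30 PTZ cells. The same held for 3 of 41 FOS- and 2 of 40 FOS+ nuclei. All 7 were found in 4 saline cells and 1 FOS+ nucleus. At the low end, 4 PTZ cells had 1 gene, 1 FOS+ nucleus had none and 6 had 1, and no saline cell or FOS- nucleus had fewer than 2. Without the cells that had fewer than 4 granule cell markers, the median stayed at 5 in PTZ and 6 in saline cells, and 1 PTZ cell with a single gene was left.

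An alpha and a beta subunit of the list, the minimum for a receptor of these genes, were detected together in 37 of 38 saline cells, 26 of 30 PTZ cells, 33 of 41 FOS- nuclei, 30 of 40 FOS+ nuclei and 6 of 23 HC nuclei. At least 2 alpha subunits were present in 38 saline cells, 25 PTZ cells, 31 FOS- and 27 FOS+ nuclei. Both beta subunits were present in 32 saline and 18 PTZ cells, and in 13 nuclei of either sort. The number of subunits per cell went with the number of genes detected to a varying degree, with Spearman's rho of 0.52 over PTZ cells, 0.15 over saline cells, 0.62 over FOS+, 0.39 over FOS- and 0.07 over HC nuclei. These are descriptions over cells of single preparations.

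**Figure D4:**
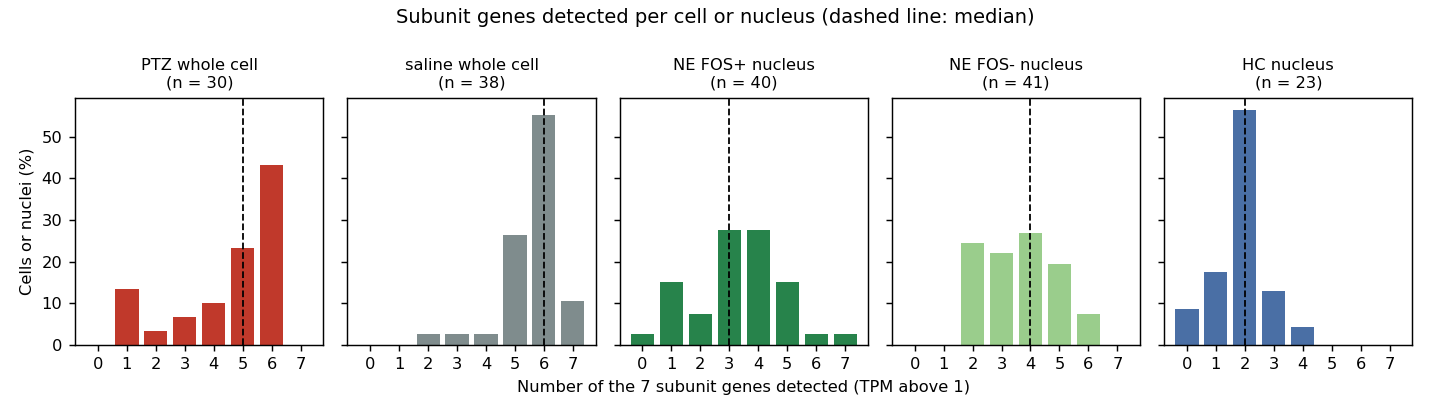
Share of cells or nuclei, in percent, by how many of the 7 subunit genes were detected, in a panel for each of the 5 groups. Dashed lines are medians, which lie at 5 (PTZ), 6 (saline), 3 (FOS+), 4 (FOS-) and 2 (HC).

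Among pairs, whole cells with *Gabrd* also had *Gabra4*, its extrasynaptic partner, *Gabrb2* and the synaptic *Gabra2*. *Gabrd* was detected in 30 of the 36 saline cells with *Gabra4* and in neither of the 2 without it. In PTZ cells it was in 15 of 24 with *Gabra4* and in 0 of 6 without it. The product of the shares gives 28.4 saline and 12 PTZ cells with both *Gabra4* and *Gabrd*. PTZ cells with both had a median of 6252 genes, and the other PTZ cells 5247. With *Gabrb2* the counts for *Gabrd* were 30 of 36 and 0 of 2 in saline cells, and 15 of 22 and 0 of 8 in PTZ cells. *Gabra2* was in every saline cell, and in PTZ cells *Gabrd* was in 15 of 28 with *Gabra2* and in 0 of 2 without it. In FOS- nuclei *Gabrd* was found in 9 of 32 with *Gabra4* and 3 of 9 without it, and in FOS+ nuclei in 4 of 24 and 3 of 16. *Gabra4* and *Gabrb2* were likewise found together in 22 of 30 PTZ cells, where the product of their shares gives 17.6. *Gabra4* alone was in 2 cells, *Gabrb2* alone in none, and 6 had neither. These 6, the PTZ cells without *Gabra4*, included the 3 with fewer than 4 of 8 granule cell markers, which had 1 subunit gene each. The part of those 3 cells in the pair counts was not tested.

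The head-to-head neighbours *Gabra4* and *Gabrb1* were detected together in 33 of 38 saline and 20 of 30 PTZ cells, against 31.3 and 18.4 from the product of their shares. In FOS- nuclei both were found in 23 of 41 (22.6 from the product) and in FOS+ nuclei in 20 of 40 (19.8). The Spearman correlation of their TPM was 0.52 over saline and 0.51 over PTZ cells, but 0.04 over FOS- and -0.33 over FOS+ nuclei. Over all pairs of members, the highest value was that of this pair in saline cells. In PTZ cells it was 0.70, for *Gabra4* with *Gabrb2*, which are on different chromosomes. Of the 21 pairs of members, 20 in PTZ cells, 9 in saline cells, 18 in FOS+ nuclei, 12 in FOS- nuclei and 4 in HC nuclei were found together more often than the product of the shares gives. In saline cells the 6 pairs with *Gabra2*, present in every cell, equal the product by construction. The PTZ counts include the 3 cells with fewer than 4 granule cell markers, which had 1 subunit gene each. PTZ cells with both *Gabra4* and *Gabrb1* had a median of 6147 genes, and the other PTZ cells 4943.

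**Figure D5:**
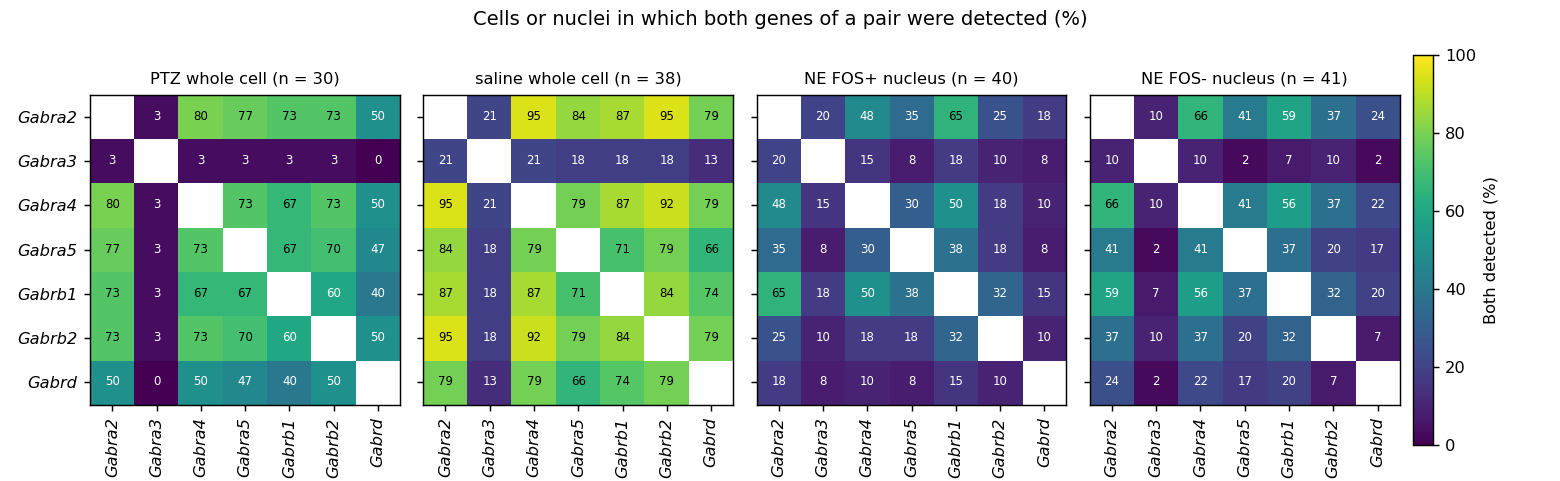
Share of cells or nuclei, in percent, in which both genes of a pair were detected, for PTZ and saline whole cells and FOS+ and FOS- nuclei. Brighter squares are higher; *Gabra2* with *Gabra4* reaches 95% in saline and 80% in PTZ cells, and pairs with *Gabra3* are the darkest.

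Genes whose TPM followed that of a member most closely were sought among 9476 genes over the 68 whole cells and 9008 genes over the 81 NE nuclei. In whole cells, *Gabra4* was nearest to *Serinc3* (Spearman's rho 0.74), *Gabra5* to *Porcn* (0.49), *Gabrb1* to *Slitrk2* (0.63), *Gabrb2* to *Cntn1* (0.68) and *Gabrd* to *Chgb* (0.60). *Slc30a3*, a zinc transporter of synaptic vesicles, was at rank 2 for both *Gabrb2* (0.66) and *Gabrd* (0.59). In nuclei, *Gabra2* was nearest to *Arhgap5* (0.52), *Gabra4* to *Scn3a* (0.50) and *Gabrb1* to *Cdk13* (0.42). Of the 100 nearest genes in whole cells, 1 was also among the 100 nearest in nuclei for *Gabra2*, 6 for *Gabra4* and 1 for *Gabrb1*. Cells of a table share their preparation and differ in depth, and the part of depth in these values was not tested.

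The tables held 12 other GABA-A subunit symbols. *Gabre*, the epsilon gene, was seen in 13 FOS+ and 14 FOS- nuclei and in 0 whole cells, with at most 6 counts in any nucleus.

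Among the other subunits, 4 could be compared between whole cells and 5 between NE nuclei. In each comparison 1 of them, *Gabrg3*, the gamma3 gene, had a 2-fold difference, as 25.7% and 39.8% of all genes had. It was detected in 1 of 30 PTZ and 7 of 38 saline cells, with 9 and 660 counts in sum, a ratio of 0.0135 (0.00615 to 0.0258). In NE nuclei it was detected in 2 of 40 FOS+ and 7 of 41 FOS- nuclei, with 47 and 361 counts. The 9 PTZ counts included 8 in 1 cell. A single nucleus held 70.2% of the FOS+ counts and another 56.2% of the FOS- counts, and the detection differences were -15.1 and -12.1 points.

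Partners of the receptor were described from 4 lists, whose genes were chosen with earlier results known. Among 4 tested genes for GABA-B receptors and their KCTD subunits, none reached 2-fold between PTZ and saline cells, and *Kctd12*, an auxiliary subunit, was higher in FOS+ nuclei (log2 fold change 2.97, detected in 14 of 40 and 8 of 41). The receptor gene *Gabbr1* was detected in 38 of 40 FOS+ and 29 of 41 FOS- nuclei, with a log2 fold change of 0.83, and *Gabbr2* in 28 and 32 nuclei, with one of 0.35. For comparison, 39.8% of all genes reached 2-fold in either direction between FOS+ and FOS- nuclei, and 25.7% between PTZ and saline cells.

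Of 20 genes for the inhibitory synapse scaffold and receptor trafficking, 1 was 2-fold higher and 2 were 2-fold lower in PTZ cells. These were *Shisa7*, an auxiliary GABA-A receptor protein (1.71 on the log2 scale, detected in 21 of 30 and 20 of 38 cells), *Trak2* (-1.08) and *Plcl1* (-1.16). Between FOS+ and FOS- nuclei, 3 of 19 were higher and 5 lower. *Gabarap*, a receptor trafficking protein, was detected in 13 of 40 FOS+ nuclei and 4 of 41 FOS- nuclei, at a log2 fold change of 3.45, and *Nlgn2*, the adhesion protein of inhibitory synapses, in 26 and 17, at 1.28. *Trak1* was the remaining higher gene (2.18, in 20 and 14). Lower in the fit were *Gabarapl1* (-1.65, in 17 and 16), *Hap1* (-1.22, in 15 and 25), *Zdhhc3* (-1.68, in 28 and 28), *Rdx* (-2.55, in 6 and 13) and *Dag1* (-1.01, in 13 and 13). Of these, only *Hap1* and *Rdx* were detected in a smaller share of FOS+ nuclei. A single nucleus held 68.7% of the *Rdx* counts in FOS+ nuclei, and another 48% in FOS- nuclei.

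Of 6 genes for chloride transport, which sets the direction of GABA-A currents, *Wnk1* (1.27) and *Oxsr1* (1.09) were 2-fold higher in PTZ cells, the latter detected in 2 of 30 and 3 of 38 cells. In FOS+ nuclei *Slc12a5*, the potassium-chloride exporter KCC2, was higher (1.05, detected in 27 of 40 and 25 of 41), and *Slc12a2* (-1.53), *Clcn2* (-1.67) and *Oxsr1* (-3.58) were lower on 5 to 11 detecting nuclei a group. Of the genes for GABA synthesis, transport and breakdown, 6 could be compared between whole cells and 5 between NE nuclei. *Aldh5a1*, which breaks down a product of GABA, was higher in PTZ cells (1.49, detected in 15 of 30 and 6 of 38). *Gad1* (1.77) and *Gad2* (2.03), which make GABA, were higher in FOS+ nuclei. Both are also interneuron markers, of which 5 could be compared. These 2 were 2-fold higher and 1, *Vip*, was lower in the fit. *Vip* was detected in 3 of 40 FOS+ and 3 of 41 FOS- nuclei, and 1 nucleus held 99.7% of its 1087 counts in FOS- nuclei. The part of cell type was not tested. *Abat* had a fitted log2 fold change of -2.01. *Gad2* had 145 counts in FOS+ nuclei, 53.1% of them in 1 nucleus, and *Abat* had 70 in FOS- nuclei, 85.7% of them in 1 nucleus. *Abat* was detected in 12 of 40 FOS+ and 10 of 41 FOS- nuclei, and its mean log2(TPM + 1) was higher in FOS+ nuclei by 0.15.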

How the data were processed

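Per the submitters' processing notes and methods, the authors trimmed reads, aligned them to mm10 (GRCm38) with RSEM and Bowtie 1.0.0, and deposited expected counts and TPM per gene symbol for each of the 3 tables. Cells were kept over 50000 expected counts and, for whole cells and NE nuclei, with more genes than the table's mean minus 2 SD; the study's spike-in criterion was not applied. Expected counts were rounded, genes with a count in at least 5 compared cells were tested, and log2 fold changes came from edgeR 4.0.16 (R 4.3.3, TMM factors), with limma 3.58.1 and DESeq2 1.42.0 as alternatives. The planned design tested over cells with edgeR and Fisher's exact test. Because cells of a treatment share 1 pool or mouse, no p-value is given, and sizes are read against limits of 2-fold, 1 log2 unit or 20 points, chosen with the values known. Intervals are exact, at 95% (scipy 1.17.1), and cover counting error only. Named genes were the 7 members, other subunits detected in at least 10% of a group, list genes past 2-fold and the 2 most abundant per list, and the nearest genes by Spearman's rho. Members and lists were chosen with earlier results of these data known. The fits were tested on simulated data. Some genes that these rules name are not reported here.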

Additional observations from a re-analysis of the deposited data

How the results depend on the processing

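Between PTZ and saline cells, 3721 genes passed 2-fold in the edgeR fit, against 1727 by differences in mean log2(TPM + 1), 6638 with no filter on low counts and 522 after edgeR's filterByExpr. Between FOS+ and FOS- nuclei the number was 6538, against 2269 by log2(TPM + 1) and 376 after filterByExpr. Differences of 20 points in detection were shown by 1083 genes in PTZ against saline cells and 1311 in FOS+ against FOS- nuclei, and by 516 and 848 with every deposited cell. *Gabra5* turned to -0.14 between FOS+ and FOS- nuclei with log2(TPM + 0.1). Fitted log2 fold changes near 0 changed sign for *Gabra2* in 4 of 10 and for *Gabra5* in 5 of 10 alternatives between PTZ and saline cells. The causes were not tested. Leaving out cells with few granule cell markers, or the cell with most counts, was chosen after seeing the data. No paired analysis was possible because the labels carry no replicate numbers that link cells of different groups. HC nuclei, the group with the lowest median total, were not compared by a fit.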
